A study of Mus musculus with 20 samples.

Results

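The RNA of outer eyecups, the retinal pigment epithelium (RPE) with the choroid behind it, was compared between *Stra6-/-* and WT mice that had both been fed a vitamin A deficient (VAD) diet. The comparison took 10 of the 20 samples in the data set, 5 of each genotype, chosen by the genotype and diet in their labels, and every gene measured. The labels give the strain of all mice as C57BL/6, and the methods give C57BL/6J for the *Stra6-/-* mice. By the methods the *Stra6-/-* mice came from the authors' own vivarium and the WT mice from the Jackson Laboratory. Genotype and origin of the mice therefore cannot be told apart. The *Stra6-/-* mice lack the gene in the whole body, not in the RPE alone. Until weaning at about 28 days the pups stayed with dams on ordinary chow, and from then on both groups received food with 0 IU of vitamin A per g for 12 weeks. The 10 samples not compared here came from the same genotypes on a vitamin A sufficient (VAS) diet with 4 IU per g over the same time. They entered the filter on reads, the estimate of spread and the tests of whether diet changed the genotype difference. Some values and calls of the VAS libraries are also given beside those of the main comparison. By the study's methods the front of the eye, the attached muscle and the connective tissue were cut away, the retina was peeled off after dispase treatment, and both eyecups of 1 mouse were pooled.

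STRA6 is the membrane receptor through which cells such as those of the RPE take up retinol from retinol-binding protein in the blood. Inside the RPE, LRAT esterifies retinol for storage and RPE65 turns the esters into 11-cis-retinol, which RDH5 oxidizes to the chromophore of rod and cone opsins. The RPE also forms the outer blood-retinal barrier through its junctions, carries glucose, lactate and ions between blood and photoreceptors, and takes up shed outer segments. Measured values are gene counts divided by 1 size factor per library (normalized values), so they can be compared between libraries for 1 gene but not between genes. Differences are given as log2 fold changes on log2(value + 1), each with its standard error (SE) and an adjusted p from limma over 18807 genes. The added 1 makes them smaller for genes with low values.

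Some values ran against the labels or the stated sampling, and this bears on each result below. The targeted gene *Stra6* had values of 2126, 1973, 2116, 2393 and 2208 in replicates 1 to 5 of the libraries labelled VAD *Stra6-/-*, against 693, 1340, 697, 1529 and 669 in VAD WT. Every library with the knockout label was above every WT library, which is opposite to that label (log2 fold change 1.23, SE 0.18, adjusted p = 3.92e-06, limma). Relative to RPE genes, as given below, *Stra6* differed by -1.45 on the log2 scale, in the direction of the label. The label was thus not settled by these values, and any direction given below is that of the libraries so labelled. Each of these 5 libraries held both the female transcript *Xist* (3570 to 4280) and the Y-linked *Ddx3y* (741 to 970), although each is stated to come from 1 mouse, and the sexes could not be matched. Replicates 2 and 4 of VAD WT stood apart from replicates 1, 3 and 5. Between these subsets the chi-square per gene of the reads was 172 to 216, against 7.18 to 11.4 within them, where 1 is counting noise. The subsets also differed in the sex markers. The log2 fold change of *Xist* was 4.32 without WT replicates 2 and 4 and -1.50 without replicates 1, 3 and 5. That of *Ddx3y* was -0.32 and 3.46 in the same order. Leaving out either subset thus also changes the sex markers of the reference, and the part of sex was not tested. Reads per library ranged from 13331903 to 21878614. The markers of the RPE were present in every library, and so were those of the cornea, which the dissection should remove. The 11 cornea epithelium genes took 0.200 to 0.250% of the summed values in the libraries labelled VAD *Stra6-/-*, 6.56 to 6.73% in VAD WT replicates 1, 3 and 5, 2.70 to 2.73% in VAD WT replicates 2 and 4, and 3.96 to 5.28% in the VAS libraries. The 20 RPE genes took 3.13 to 3.31%, 0.309 to 0.326%, 0.558 to 0.565% and 0.816 to 0.928% in the same order. The part of this shift in tissue makeup in the results was not tested. In bulk RNA, fewer cells of a type and less RNA per cell cannot be told apart.

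At an adjusted p under 0.05, 55.9% of the genes tested differed, with 26.2% higher in the libraries labelled VAD *Stra6-/-* and 29.6% lower. The 5 and 5 libraries did not overlap in 37.4% of genes, 18.3% in the upward and 19.0% in the downward direction, and the median log2 fold change of all genes was -0.05. These shares are the background for the counts of listed genes that follow. The list medians were highest for retinoid cycle genes (3.87), transport genes (3.11), RPE genes (2.76) and melanosome genes (2.33), and lowest for cornea epithelium genes (-4.80), the junction genes of the study (-4.22), surface epithelium genes (-4.19) and desmosome genes (-4.13). Without VAD WT replicates 2 and 4, 63.1% were called (30.7% higher and 32.5% lower), and without replicates 1, 3 and 5 it was 52.2% (23.4% and 28.8%).

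**Figure D1:**
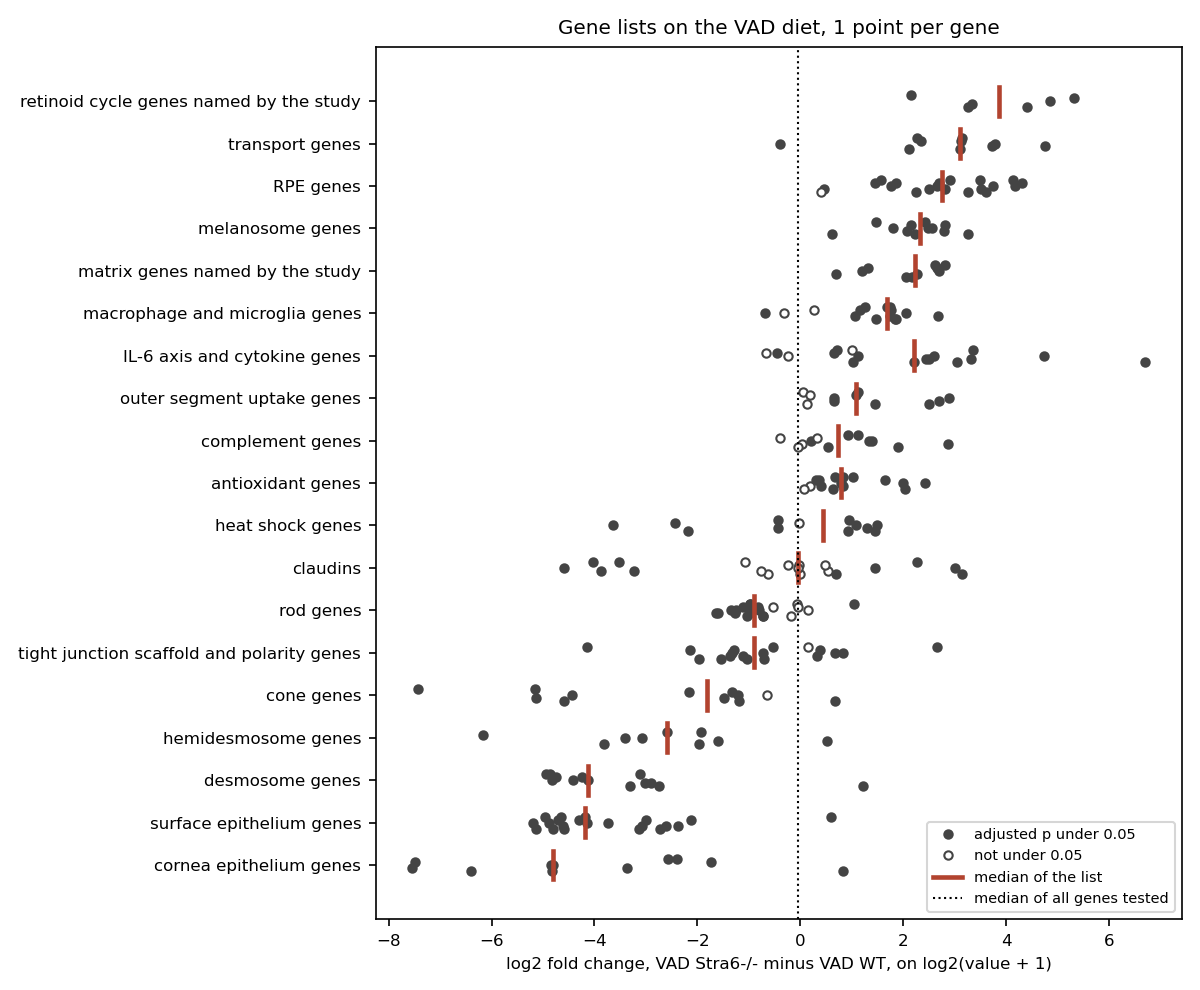
Log2 fold changes (x axis) of the libraries labelled VAD Stra6-/- over VAD WT for 19 gene lists (y axis), with 1 point per gene. Filled points have an adjusted p under 0.05 (limma), red bars mark the list medians and the dotted line the median of all genes, -0.05. The list medians run from 3.87 for the retinoid cycle genes to -4.80 for the cornea epithelium genes.

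All 6 retinoid cycle genes that the study names rose, with a median log2 fold change of 3.87, and in each of them the groups did not overlap. A count of 6 of 6 stands beside 26.2% of all genes called higher, and the study chose these genes on these samples, so the count is not independent evidence of direction. *Rpe65*, the retinoid isomerase, lies at chromosome 3 from 159599175 to 159625321 of GRCm38 (GENCODE vM21). It measured 45030, 44619, 42395, 44227 and 45414 in the libraries labelled VAD *Stra6-/-* and 1503, 3908, 1545, 3945 and 1107 in VAD WT. The WT values split in the same way as the libraries do, with replicates 2 and 4 above the others, but the lowest value of the other group exceeded all of them (log2 fold change 4.41, SE 0.24, adjusted p = 1.84e-12, limma). *Lrat*, which esterifies retinol, lies at chromosome 3 from 82892579 to 82903973. Its values were 19902, 19917, 19838, 20082 and 18109 against 263, 821, 414, 941 and 317, again with WT replicates 2 and 4 the highest of their group (log2 fold change 5.33, SE 0.24, adjusted p = 5.92e-14, limma). *Rdh10*, a retinol dehydrogenase, stood at 15803, 15662, 14935, 15516 and 15395 against 235, 1181, 355, 1418 and 302. The WT libraries thus spanned a wider range than the libraries labelled VAD *Stra6-/-*, which lay close together (log2 fold change 4.86, SE 0.34, adjusted p = 7.72e-11, limma). *Rlbp1* encodes the carrier of 11-cis-retinoids and had values of 54676, 52216, 55281, 52530 and 56495 against 3624, 9287, 3597, 9167 and 3954 (log2 fold change 3.34, SE 0.21, adjusted p = 1.76e-11, limma). *Rdh5*, which completes the chromophore, was measured at 28132, 26537, 28792, 26386 and 31829 against 2646, 3354, 2761, 3382 and 2711. Here WT replicates 2 and 4 lay only slightly above the others (log2 fold change 3.26, SE 0.08, adjusted p = 1.75e-17, limma). Without WT replicates 2 and 4 the median of the list was 4.44, and without replicates 1, 3 and 5 it was 3.28, with all 6 genes called in both fits.

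**Figure D2:**
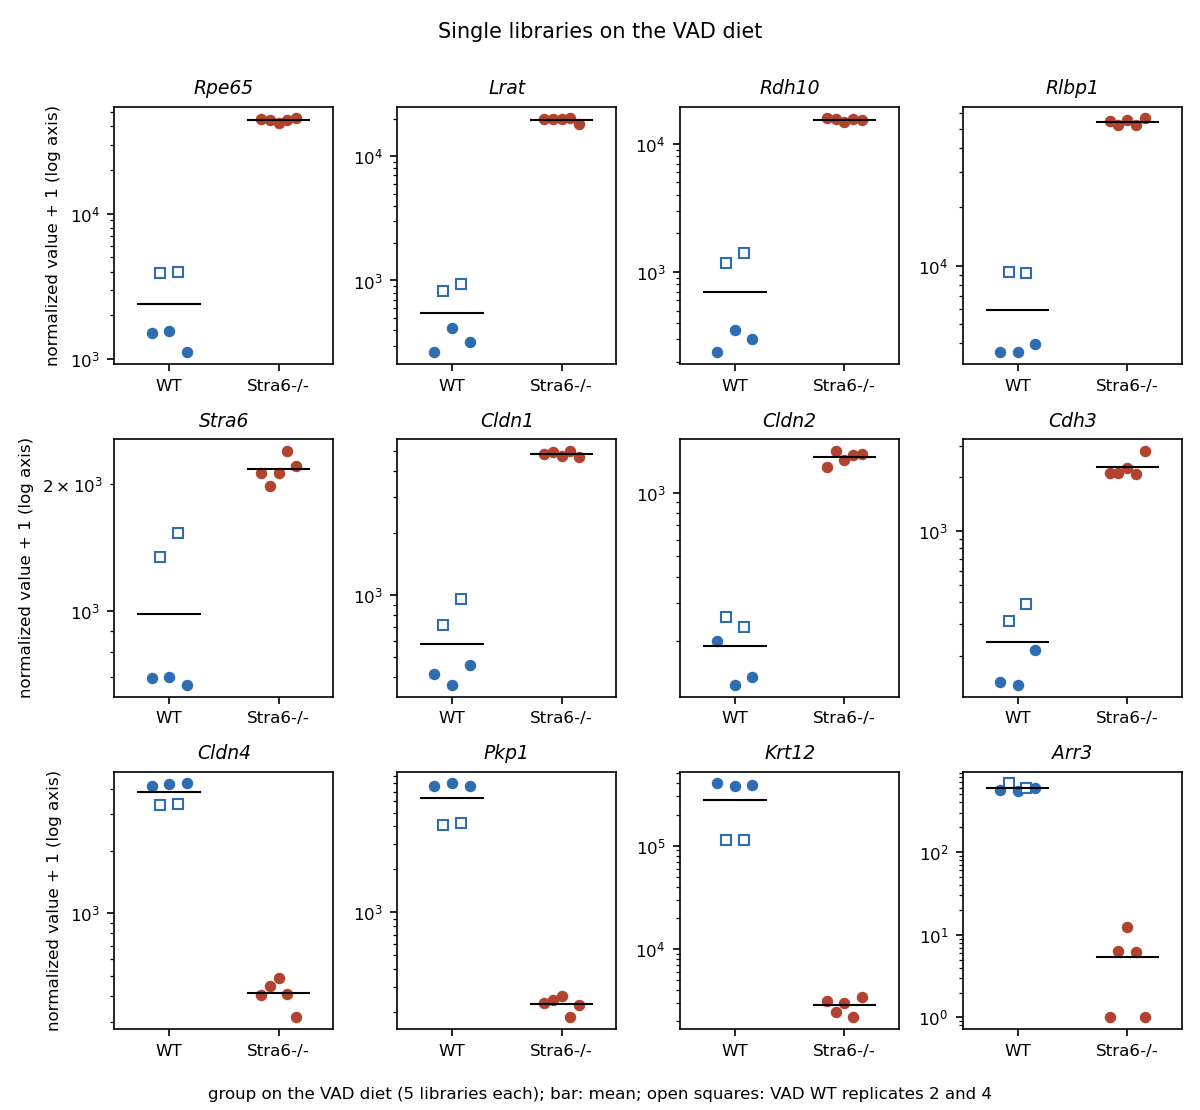
Normalized value + 1 (log y axis) of 12 genes in each of the 5 VAD WT and 5 libraries labelled VAD Stra6-/-, with bars at the means and open squares for VAD WT replicates 2 and 4. The first 8 genes are higher and the last 4 lower in every library labelled VAD Stra6-/- than in every VAD WT library, and WT replicates 2 and 4 lie nearer to the other group except in Arr3.

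Because these genes moved together, the sequence before their starts is shown for the 3 with an entry among the 4 largest rises. RefSeq (GRCm38.p6) had an entry for 4 of the 6 genes. The 250 bases up to the start were searched on both strands for the E-box forms CACGTG and CATGTG, bound by MITF and related factors, and for TAATCC, bound by OTX2 and related factors. The first occurs in 6.02% of all 32851 such windows, the second in 12.3% and the third in 6.25%. Matches are in capitals and read as CACATG and GGATTA where the motif lies on the other strand. A match is a description of the letters only.
Rpe65 (chr3:159598931-159599180, plus strand): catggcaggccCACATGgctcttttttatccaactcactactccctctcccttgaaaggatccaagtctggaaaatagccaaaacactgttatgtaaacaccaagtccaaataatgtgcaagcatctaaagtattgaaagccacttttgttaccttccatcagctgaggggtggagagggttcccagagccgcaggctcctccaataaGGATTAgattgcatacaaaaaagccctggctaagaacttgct
Rlbp1 (chr7:79387028-79387277, minus strand): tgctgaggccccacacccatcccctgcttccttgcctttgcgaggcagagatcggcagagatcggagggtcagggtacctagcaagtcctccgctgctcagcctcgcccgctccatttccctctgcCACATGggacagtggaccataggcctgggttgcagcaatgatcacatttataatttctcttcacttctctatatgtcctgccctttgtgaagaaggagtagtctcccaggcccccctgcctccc
Lrat (chr3:82903975-82904224, minus strand): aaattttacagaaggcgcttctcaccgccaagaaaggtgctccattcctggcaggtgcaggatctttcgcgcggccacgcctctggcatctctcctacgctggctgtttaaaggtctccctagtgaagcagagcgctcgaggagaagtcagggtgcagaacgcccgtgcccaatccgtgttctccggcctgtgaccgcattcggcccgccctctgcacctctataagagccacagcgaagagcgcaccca
The *Rpe65* window held CATGTG 239 bases and TAATCC 42 bases before the start, the *Rlbp1* window held CATGTG 124 bases before it, and the windows of *Lrat* and *Rdh5* held none of the 3. *Mitf* itself had values of 2049, 2181, 1996, 2162 and 2472 in the libraries labelled VAD *Stra6-/-* against 454, 1213, 444, 1100 and 389 in VAD WT (log2 fold change 1.76, SE 0.23, adjusted p = 9.76e-07, limma). *Otx2* had values of 5321, 4900, 5062, 4897 and 4820 against 1411, 1966, 1573, 1896 and 1552 (log2 fold change 1.58, SE 0.08, adjusted p = 3.29e-13, limma). Both factors rose, with no overlap between the groups.

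Of 18 other genes of retinoid handling, 9 were called higher and 2 lower, with a median log2 fold change of 0.60. The largest rise was in *Rgr*, an opsin of the RPE that isomerizes retinoids, at 159774, 156194, 158080, 155196 and 170017 against 7157, 13208, 7039, 12468 and 7691 (log2 fold change 4.13, SE 0.15, adjusted p = 2.6e-15, limma). *Ttr*, transthyretin, which carries retinol-binding protein, rose by 3.50 (SE 0.14, adjusted p = 1.67e-14, limma). *Cd36*, a scavenger receptor, stood at 959, 867, 959, 843 and 864 against 130, 222, 122, 155 and 44.2, with a single low library, replicate 5, in VAD WT (log2 fold change 2.9, SE 0.27, adjusted p = 6.58e-09, limma). *Rdh12*, a retinal reductase of photoreceptors, fell by 0.99 (SE 0.10, adjusted p = 1.93e-08, limma). *Rbp3*, the retinoid carrier between photoreceptors and RPE, was at 5315, 6416, 5640, 6791 and 5127 against 4680, 17087, 4837, 17354 and 4607, so that the groups overlapped and the test was not passed (log2 fold change -0.44, SE 0.30, adjusted p = 0.218, limma). Its log2 fold change turned to 0.31 without WT replicates 2 and 4 and was -1.56 without replicates 1, 3 and 5.

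Genes that make, break down or sense retinoic acid did not move in 1 direction. Among 10 tested genes of synthesis and breakdown, 3 were higher and 4 lower, with a median of -0.88. The 4 lower ones were the dehydrogenases *Aldh3a1*, *Adh7*, *Adh1* and *Aldh1a3*. *Adh7* measured 453, 417, 408, 429 and 369 in the libraries labelled VAD *Stra6-/-* against 17917, 7521, 16244, 7200 and 16495 in VAD WT (log2 fold change -4.87, SE 0.19, adjusted p = 9.99e-15, limma). *Aldh1a3*, a retinaldehyde dehydrogenase, stood at 146, 172, 186, 156 and 177 against 1286, 1054, 1416, 1048 and 1568 (log2 fold change -2.91, SE 0.10, adjusted p = 6.97e-16, limma). *Aldh3a1* and *Adh7* are abundant in corneal epithelium, whose genes fell with them. *Aldh1a2*, the retinaldehyde dehydrogenase of mesenchyme, had values of 1286, 1326, 1477, 1282 and 1227 against 561, 1063, 579, 1168 and 595 (log2 fold change 0.81, SE 0.17, adjusted p = 0.00031, limma), and without WT replicates 1, 3 and 5 its log2 fold change was 0.24 and no longer called. *Cyp26a1*, which degrades retinoic acid and is induced by it, was at 270, 289, 266, 254 and 189 against 29.5, 276, 51.1, 370 and 24.7. WT replicates 2 and 4 reached the level of the other group, the groups overlapped, and the log2 fold change, which was called (log2 fold change 1.58, SE 0.55, adjusted p = 0.018, limma), became -0.35 without WT replicates 1, 3 and 5. Of 6 retinoic acid receptors, *Rarb* rose (log2 fold change 0.86, SE 0.13, adjusted p = 1.35e-05, limma) and *Rara*, *Rarg*, *Rxra* and *Rxrb* fell. The largest fall was that of *Rarg*, the form typical of surface epithelia, at 798, 698, 717, 682 and 694 against 4074, 2318, 4238, 2391 and 4200 (log2 fold change -2.21, SE 0.14, adjusted p = 1.41e-11, limma). Of 7 tested genes known to respond to retinoic acid, *Rarb*, *Cyp26a1* and *Dhrs3* were called higher and *Tgm2* lower, with a list median of 0.09. The call of *Cyp26a1* was lost with edgeR (0.68), with DESeq2 (0.72), in the VAD libraries alone (1.58) and without WT replicate 1 (1.22) or 5 (1.16). That of *Dhrs3* was lost with library weights (0.13), in the VAD libraries alone (0.19) and without replicate 5 of the libraries labelled VAD *Stra6-/-* (0.15).

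RPE genes other than the 6 above rose as a group, 19 of 20 being called higher with a median of 2.76 and no overlap between the groups. *Col8a1*, a collagen of the RPE's basement membrane, had values of 11128, 11113, 10200, 11158 and 10052 against 248, 1539, 318, 1585 and 227 (log2 fold change 4.32, SE 0.40, adjusted p = 7.46e-09, limma). *Enpp2*, which makes lysophosphatidic acid, stood at 35285, 35286, 36853, 35051 and 34369 against 1643, 2567, 1793, 2363 and 1646 (log2 fold change 4.17, SE 0.10, adjusted p = 1.75e-17, limma). *Kcnj13*, a potassium channel of the apical RPE membrane, measured 6335, 6309, 6033, 5778 and 6547 against 569, 912, 472, 846 and 519 (log2 fold change 3.27, SE 0.14, adjusted p = 2.06e-14, limma). In each of these the spread within the libraries labelled VAD *Stra6-/-* was small next to the gap between the groups. The exception was the chloride channel gene *Best1*, at 24.2, 18.0, 27.6, 18.4 and 29.6 against 14.1, 22.7, 7.09, 24.8 and 26.0, where the groups overlapped (log2 fold change 0.4, SE 0.39, adjusted p = 0.4, limma). All 12 melanosome genes rose, with a median of 2.33 and no overlap, from *Rab38* at 0.61 (SE 0.14, adjusted p = 0.000563, limma) to *Tyr*. *Tyr*, the tyrosinase that starts melanin synthesis, was at 4811, 4796, 4616, 4880 and 4493 against 321, 821, 362, 1012 and 283 (log2 fold change 3.27, SE 0.24, adjusted p = 2.56e-10, limma). Melanocytes of the choroid express these genes too. Of 11 genes for the uptake and digestion of outer segments, 8 were called higher and none lower, with a median of 1.09. *Itgav*, an integrin subunit that binds outer segments, stood at 7355, 7606, 6971, 7123 and 8296 against 1079, 1145, 1003, 1330 and 1244 (log2 fold change 2.69, SE 0.08, adjusted p = 1.29e-16, limma). *Mertk*, the receptor that triggers their engulfment, was at 882, 1086, 929, 1024 and 862 against 309, 458, 315, 440 and 257 (log2 fold change 1.45, SE 0.13, adjusted p = 7.7e-09, limma).

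To set single genes against the RPE content of each library, 26 genes were expressed as log2 level minus the mean log2 level of the 20 RPE genes, and the groups were compared by exact permutation tests, two-sided and adjusted over the 26. The smallest p that 5 against 5 libraries allow is 0.00794, or 0.00938 adjusted, and 22 of the 26 reached it. On this scale *Lrat* was still higher in the libraries labelled VAD *Stra6-/-*, by 2.65 (SE 0.20, adjusted p = 0.00938, exact permutation test), as were *Rdh10* by 2.18 (SE 0.35, adjusted p = 0.00938, the same exact test) and *Rpe65* by 1.73 (SE 0.21, adjusted p = 0.00938, the same exact test). *Rlbp1* and *Rdh5* differed by 0.66 and 0.58, also with an adjusted p of 0.00938 by the exact test. *Stra6* relative to RPE genes was -1.80, -1.90, -1.79, -1.62 and -1.75 in the libraries labelled VAD *Stra6-/-* and -0.39, -0.24, -0.35, -0.06 and -0.54 in VAD WT. The first 5 values were thus all below the other 5, in the direction of the label, with a difference of -1.45 (SE 0.09, adjusted p = 0.00938, exact permutation test). The 6 listed junction genes of the study differed by -4.23 (*Tjp1*) to -7.62 (*Dsc3*), each with an adjusted p of 0.00938 by the exact test. For *Slc2a12*, *Slco1a4*, *Slc13a3* and *Atp1b1* the adjusted p was 0.0516 to 0.214 (exact permutation test). The scale takes out only what the 20 genes share, and those genes are themselves among the ones that differed.

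**Figure D3:**
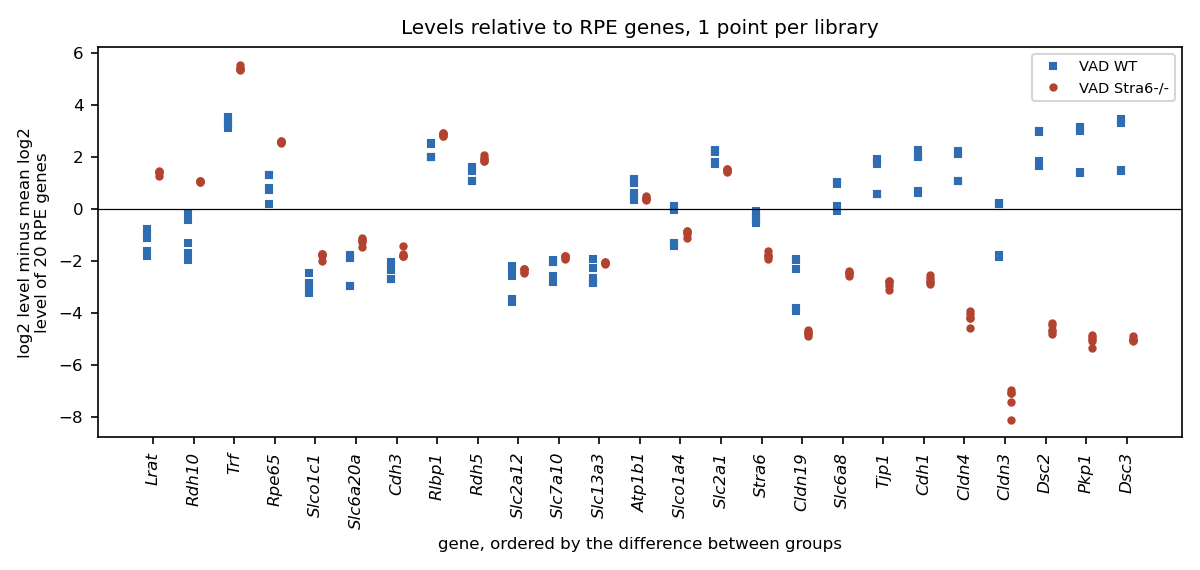
Log2 level relative to the mean log2 level of 20 RPE genes (y axis) for 25 of the 26 genes (x axis, ordered by the difference between groups), with 1 point per library: squares, VAD WT; circles, libraries labelled VAD Stra6-/-. The difference runs from 2.65 for Lrat to -7.62 for Dsc3, and Stra6 lies lower in all 5 libraries labelled VAD Stra6-/-.

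Of 10 transport genes, 9 rose and 1 fell, with a median of 3.11. The 9 that rose are named by the study, while the one that fell, *Slc6a8*, was added as the creatine transporter gene because the study speaks only of *Slc6a* genes. Most of the 9 come from the study's comparison of *Stra6-/-* mice on the VAD diet with those on the VAS diet, which holds the same libraries labelled VAD *Stra6-/-* but no VAD WT library, so the direction of the list is not independent evidence. *Trf*, transferrin, which carries iron and is secreted by the RPE, had values of 311697, 309778, 313274, 301804 and 348847 in the libraries labelled VAD *Stra6-/-* against 8868, 18581, 8919, 18194 and 8375 in VAD WT (log2 fold change 4.75, SE 0.19, adjusted p = 1.11e-14, limma). The gap between the groups was larger than in any other gene of the list. *Slco1c1*, a carrier of thyroid hormone, stood at 2228, 2205, 2204, 2102 and 1880 against 166, 167, 123, 185 and 130 (log2 fold change 3.79, SE 0.13, adjusted p = 8.32e-16, limma). *Slc6a20a*, an imino acid transporter, was at 3050, 3196, 3245, 3434 and 2736 against 252, 202, 243, 205 and 285 (log2 fold change 3.73, SE 0.10, adjusted p = 4.24e-17, limma). WT replicates 2 and 4 were the lowest of their group in *Slc6a20a* but not in *Slco1c1*. *Slc6a8* was measured at 1352, 1326, 1355, 1253 and 1441 against 1858, 1511, 1808, 1731 and 1900, a small fall without overlap (log2 fold change -0.39, SE 0.07, adjusted p = 3.82e-05, limma). Of 8 lactate and glucose transporters 5 rose and none fell. *Slc16a1*, which moves lactate across the apical RPE membrane, was at 13959, 13345, 12384, 12454 and 13229 against 565, 1728, 463, 1782 and 502 (log2 fold change 3.97, SE 0.28, adjusted p = 1.33e-10, limma), and its basolateral counterpart *Slc16a8* rose by 2.82 (SE 0.08, adjusted p = 3.02e-17, limma). *Slc2a1*, the glucose transporter GLUT1, rose by 2.11 (SE 0.08, adjusted p = 2.46e-15, limma). Of 10 genes of the sodium pump 3 were called higher, the subunit gene *Atp1b1* among them, and 1, the regulator *Fxyd3*, lower. *Fxyd3*, typical of surface epithelia, measured 94.7, 100, 98.3, 135 and 191 against 4483, 1631, 4694, 1293 and 4332 (log2 fold change -4.57, SE 0.28, adjusted p = 1.22e-11, limma).

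The list of 6 junction genes taken from the study holds *Cldn3*, *Cldn4*, *Pkp1*, *Dsc2*, *Dsc3* and *Tjp1*. All 6 fell, with a median of -4.22 and no overlap between the groups, beside 29.6% of all genes called lower. They too were picked on these samples. The study names further junction genes, and by quantitative PCR it reports lower *Cdh1* and *Dsc2* in *Stra6-/-* than in WT. Claudins are the proteins that set the permeability of tight junctions. Of 19 tested over the whole family, 5 rose and 5 fell, beside 26.2% of all genes called higher and 29.6% called lower. The median was -0.04, against -0.05 for all genes, so the family as a whole did not stand out from the background. The 5 that fell were *Cldn3*, *Cldn4*, *Cldn7*, *Cldn8* and *Cldn23*. *Cldn4*, at chromosome 5 from 134945119 to 134946934, had values of 402, 446, 488, 408 and 314 against 4104, 3334, 4200, 3367 and 4235 (log2 fold change -3.23, SE 0.10, adjusted p = 1.76e-16, limma). *Cldn7*, typical of stratified and glandular epithelia, was at 117, 111, 118, 143 and 143 against 4402, 1756, 4657, 1660 and 4379 (log2 fold change -4.59, SE 0.22, adjusted p = 2.75e-13, limma). WT replicates 2 and 4 were the lowest of their group in both, as they were in cornea genes. The 5 that rose were *Cldn1*, *Cldn2*, *Cldn12*, *Cldn19* and *Cldn22*. *Cldn1* lies at chromosome 16 from 26356642 to 26371841 and measured 4816, 4907, 4714, 4995 and 4688 against 414, 719, 367, 953 and 458 (log2 fold change 3.15, SE 0.18, adjusted p = 2.6e-12, limma). *Cldn2*, which forms a cation pore, lies at chromosome X from 139800828 to 139811386 and stood at 1325, 1570, 1415, 1507 and 1510 against 198, 258, 123, 231 and 134 (log2 fold change 3.01, SE 0.15, adjusted p = 5.69e-13, limma). *Cldn19*, the main claudin of the RPE, had values of 276, 262, 290, 248 and 276 against 184, 105, 236, 115 and 253, with WT replicates 2 and 4 the lowest and WT replicate 5 inside the range of the other group (log2 fold change 0.69, SE 0.20, adjusted p = 0.00649, limma). Without WT replicates 2 and 4 its log2 fold change was 0.28 and no longer called. Relative to RPE genes, on the scale given above, *Cldn19* differed in the opposite direction. It lay at -4.88 to -4.66 in the libraries labelled VAD *Stra6-/-* and at -3.90 to -1.91 in VAD WT (adjusted p = 0.00938, exact permutation test). The rise of *Cldn19* was thus not seen relative to RPE genes. *Cldn5*, the claudin of vessels, did not pass the test, at 1076, 984, 1112, 957 and 1255 against 1103, 1458, 1145, 1469 and 1154 (log2 fold change -0.23, SE 0.11, adjusted p = 0.0838, limma).

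Of 18 scaffold and polarity genes of tight junctions, 12 fell and 5 rose, with a median of -0.89. *Tjp1*, which encodes ZO-1, was at 962, 1085, 1016, 1083 and 859 against 3303, 2389, 3373, 2391 and 3276 (log2 fold change -1.54, SE 0.10, adjusted p = 2.45e-11, limma). *Ocln*, occludin, stood at 186, 231, 188, 169 and 173 against 480, 280, 450, 371 and 498 (log2 fold change -1.11, SE 0.12, adjusted p = 1.43e-07, limma). *Tjp3*, the ZO protein of surface epithelia, fell most, at 111, 136, 139, 166 and 120 against 3609, 1194, 3489, 1394 and 3478 (log2 fold change -4.14, SE 0.24, adjusted p = 3.5e-12, limma). In the opposite direction *Jam3*, a junctional adhesion molecule, measured 3223, 3137, 3009, 2839 and 3613 against 397, 672, 431, 689 and 385 (log2 fold change 2.66, SE 0.14, adjusted p = 5.7e-13, limma). Among 11 classical cadherins and catenins, 5 rose and 3 fell, with a median of 0.25 that was -0.27 without WT replicates 1, 3 and 5. *Cdh1*, the E-cadherin of most epithelia, was at 1066, 997, 1166, 1275 and 1101 in the libraries labelled VAD *Stra6-/-* against 4357, 2533, 3574, 2455 and 4024 in VAD WT (log2 fold change -1.56, SE 0.12, adjusted p = 6.04e-10, limma). *Cdh3*, the P-cadherin that is prominent in RPE, lies at chromosome 8 from 106510891 to 106557297 and was at 2108, 2126, 2250, 2095 and 2813 against 141, 313, 136, 387 and 213 (log2 fold change 3.37, SE 0.21, adjusted p = 9.86e-12, limma). The cadherins thus moved in opposite directions, each without overlap. *Ctnnb1*, β-catenin, which binds both, rose by 0.64 (SE 0.07, adjusted p = 2.18e-07, limma), while *Jup*, the catenin of desmosomes, fell by 3.02 (SE 0.17, adjusted p = 2.00e-12, limma).

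**Figure D4:**
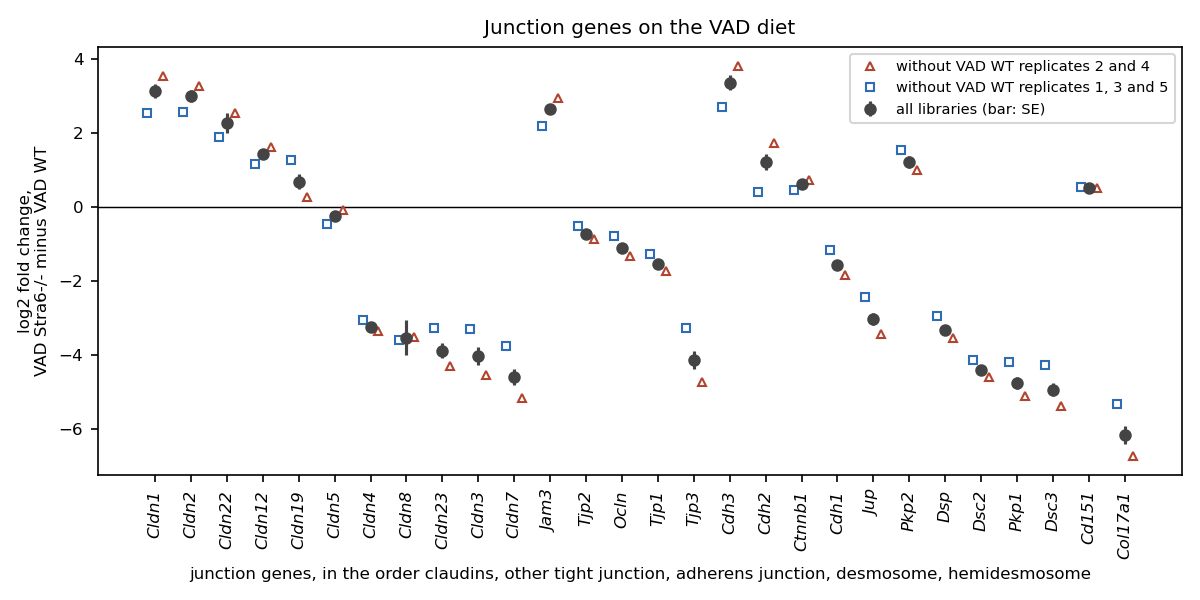
Log2 fold change (y axis) of the libraries labelled VAD Stra6-/- over VAD WT for 28 junction genes (x axis), as filled circles with SE bars from the fit on all libraries, triangles without VAD WT replicates 2 and 4, and squares without VAD WT replicates 1, 3 and 5. Claudins divide between Cldn1 at 3.15 and Cldn7 at -4.59, and desmosome genes other than Pkp2 lie below -2.

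Of 13 genes of desmosomes, which anchor keratin filaments at cell contacts, 12 fell and 1 rose, with a median of -4.13. *Dsc3*, a desmosomal cadherin of stratified epithelium, stood at 227, 230, 219, 223 and 255 against 9987, 4344, 9451, 4550 and 9773 (log2 fold change -4.94, SE 0.18, adjusted p = 3.12e-15, limma). *Pkp1*, a plaque protein of the same tissue, lies at chromosome 1 from 135871395 to 135919207 and was at 230, 244, 257, 183 and 222 against 7684, 4112, 7999, 4247 and 7731 (log2 fold change -4.75, SE 0.16, adjusted p = 5.88e-16, limma). In both, WT replicates 1, 3 and 5 were well above replicates 2 and 4, and the other group was far below all 5. *Dsp*, desmoplakin, found in every desmosome, measured 1639, 1510, 1622, 1677 and 1453 against 18816, 12076, 18266, 12372 and 18056 (log2 fold change -3.31, SE 0.11, adjusted p = 1.21e-15, limma). *Pkp2*, the plakophilin of simple epithelia and heart, was the one that rose, at 573, 422, 463, 511 and 484 against 286, 149, 166, 186 and 295 (log2 fold change 1.23, SE 0.17, adjusted p = 2e-06, limma). Of 9 hemidesmosome genes, which tie epithelium to its basement membrane, 8 fell and *Cd151*, a tetraspanin present in many cell types, rose, with a median of -2.58. *Col17a1*, the collagen of hemidesmosomes, was at 242, 263, 185, 187 and 141 against 21401, 7710, 20749, 8240 and 21599 (log2 fold change -6.17, SE 0.24, adjusted p = 1.03e-14, limma).

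The genes of corneal and other surface epithelium moved with the junction genes. Of 11 cornea epithelium genes 10 fell and 1 rose, with a median of -4.80, and of 21 tested surface epithelium genes 20 fell and 1 rose, with a median of -4.19. *Krt12*, the keratin specific to corneal epithelium, lies at chromosome 11 from 99415666 to 99422259 and had values of 3140, 2472, 3030, 2179 and 3433 in the libraries labelled VAD *Stra6-/-* against 400653, 114762, 381262, 113908 and 384665 in VAD WT (log2 fold change -6.4, SE 0.30, adjusted p = 1.75e-13, limma). None of these genes was at 0 throughout the libraries labelled VAD *Stra6-/-*. *Trp63*, the transcription factor of stratified epithelium, stood at 75.6, 89.3, 80.9, 53.5 and 44.0 against 2653, 1075, 2667, 1246 and 2496 (log2 fold change -4.81, SE 0.22, adjusted p = 1.37e-13, limma). *Muc4*, a mucin of the ocular surface, was at 345, 398, 452, 324 and 404 against 18410, 8578, 17483, 8728 and 18481 (log2 fold change -5.14, SE 0.18, adjusted p = 1.59e-15, limma). The sum over the cornea epithelium genes was 35504 to 46210 in the libraries labelled VAD *Stra6-/-*, 1240641 to 1271890 in WT replicates 1, 3 and 5, and 433558 to 438481 in WT replicates 2 and 4. The sum over the surface epithelium genes was 11378 to 14508, 174992 to 179685 and 101281 to 102676 in the same order. The exceptions were *Gjb6*, a connexin, at 616, 700, 670, 738 and 729 against 309, 565, 323, 523 and 289 (log2 fold change 0.84, SE 0.15, adjusted p = 5.24e-05, limma), and *Krt16*, a keratin of stressed epithelium, at 404, 445, 421, 389 and 427 against 184, 462, 162, 510 and 231, which overlapped (log2 fold change 0.59, SE 0.23, adjusted p = 0.0315, limma). The log2 fold change of *Krt16* was -0.22 without WT replicates 1, 3 and 5. Its call was also lost with edgeR (0.40), with DESeq2 (0.43), in the VAD libraries alone (0.59) and when 1 of replicates 2, 3 and 5 of the libraries labelled VAD *Stra6-/-* or of WT replicates 1, 3 and 5 was left out (0.39 to 0.58). Cornea stroma and outflow genes did not follow the epithelium, since 5 of 7 rose and only *Kera*, the keratocyte proteoglycan keratocan, fell (log2 fold change -2.18, SE 0.27, adjusted p = 6.38e-07, limma). *Myoc*, from the outflow tissue and sclera, was at 33592, 31852, 33099, 31403 and 36086 against 1818, 20304, 1866, 19432 and 1991, with WT replicates 2 and 4 nearer to the other group than to the rest of WT on the log scale (log2 fold change 2.78, SE 0.52, adjusted p = 0.000108, limma).

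**Figure D5:**
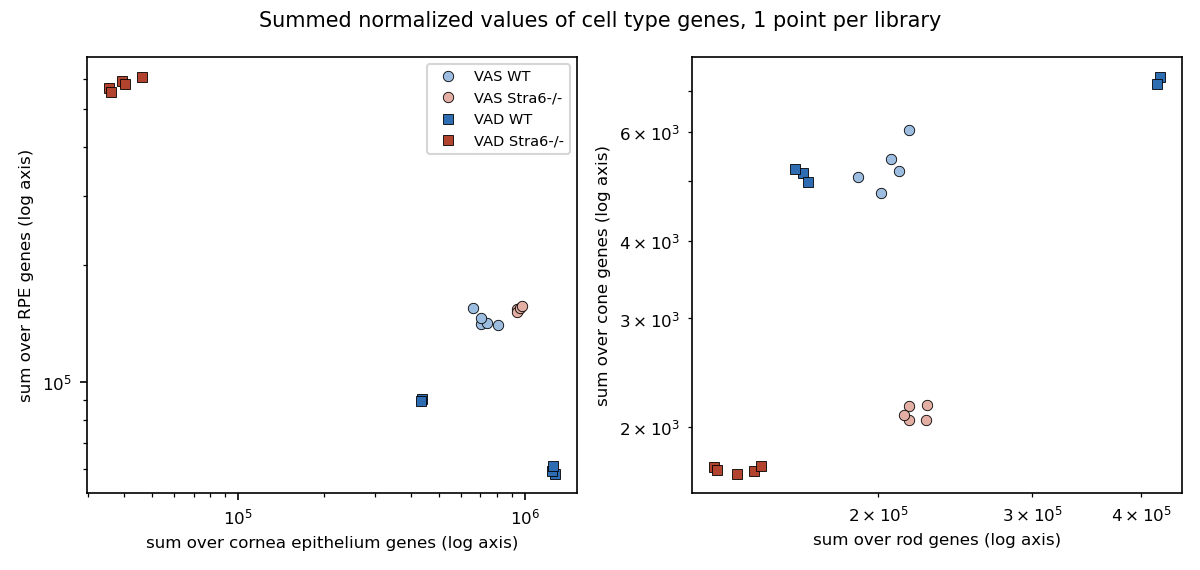
Summed normalized values (log axes) of 20 RPE genes against 11 cornea epithelium genes (left) and of 12 cone genes against 20 rod genes (right), with 1 point for each of the 20 libraries. The libraries labelled VAD Stra6-/- have the highest RPE sums (555807 to 606050) with the lowest cornea sums (35504 to 46210), and cone sums of 1684 to 1729 against 4983 to 7377 in VAD WT.

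Photoreceptor genes were mostly lower. Of 20 rod genes 14 fell and 1 rose, with a median of -0.90. *Gnat1*, the rod transducin subunit, had values of 18375, 20661, 18020, 20924 and 20117 against 33881, 76523, 32730, 79454 and 32516 (log2 fold change -1.25, SE 0.21, adjusted p = 2.71e-05, limma). WT replicates 2 and 4 held far more *Gnat1* than the other WT libraries, and without them the list median was -0.31, with 12 genes lower and 6 higher. *Pdc*, phosducin, shows how far those replicates decide a rod value: at 4049, 4523, 3958, 4391 and 3984 against 1454, 14203, 1650, 12865 and 1685 its log2 fold change was 0.16 (SE 0.48, adjusted p = 0.809, limma), but 1.39 without replicates 2 and 4 and -1.69 without replicates 1, 3 and 5. *Slc24a1*, the rod sodium-calcium exchanger, was the one rod gene that rose, by 1.05 (SE 0.17, adjusted p = 1.40e-05, limma).

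Of 12 cone genes 10 were called lower and 1 higher, with a median of -1.82, and the median was -1.87 without WT replicates 2 and 4 and -2.15 without replicates 1, 3 and 5. *Arr3*, cone arrestin, lies at chromosome X from 100605497 to 100618493 and measured 0, 5.41, 11.3, 5.27 and 0 against 565, 677, 546, 599 and 591 (log2 fold change -7.43, SE 0.49, adjusted p = 3.64e-11, limma). The WT libraries were alike in this gene, and 2 of the libraries labelled VAD *Stra6-/-* had no read of it. *Opn1sw*, the short-wave opsin, at chromosome 6 from 29376671 to 29388468, was at 13.1, 30.7, 27.6, 43.0 and 31.3 against 394, 1449, 366, 1485 and 463 (log2 fold change -4.59, SE 0.35, adjusted p = 3.27e-10, limma). *Opn1mw*, the middle-wave opsin, stood at 6.05, 4.51, 2.05, 12.3 and 2.54 against 70.7, 270, 69.5, 236 and 80.6 (log2 fold change -4.44, SE 0.40, adjusted p = 5.9e-09, limma). *Pde6h*, a subunit of cone phosphodiesterase, was at 4.03, 12.6, 7.17, 9.66 and 6.76 against 265, 541, 261, 385 and 181 (log2 fold change -5.15, SE 0.26, adjusted p = 4.13e-13, limma). *Cnga3*, of the cone channel, had 3.07 in 1 library labelled VAD *Stra6-/-*, no read in the other 4 and 36.5 to 52.0 in VAD WT. *Gnat2* and *Gnb3*, subunits of the cone G protein, fell by 1.49 (SE 0.12, adjusted p = 8.69e-10, limma) and 2.16 (SE 0.08, adjusted p = 6.18e-15, limma). *Pde6c*, the catalytic subunit, overlapped and was not called, at 132, 106, 121, 111 and 164 against 162, 355, 126, 384 and 105 (log2 fold change -0.65, SE 0.31, adjusted p = 0.0809, limma). The hormone receptor gene *Thrb*, which is not confined to cones, was called higher at 574, 634, 528, 479 and 529 against 250, 474, 287, 533 and 259, with overlap (log2 fold change 0.67, SE 0.17, adjusted p = 0.00192, limma), but at 0.12 without WT replicates 1, 3 and 5 it was not. Of 18 inner retina genes 11 fell and 3 rose, with a median of -0.91 that was -0.24 without WT replicates 2 and 4.

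Matrix, fibroblast, pericyte and muscle genes were mostly higher, with list medians that dropped to 1.01, 0.38, 0.19 and 0.48 without WT replicates 1, 3 and 5. All 10 matrix genes named by the study were called higher, with a median of 2.23. Nearly all of them come from the same comparison of diets in *Stra6-/-* mice as the transport genes, so their direction is not independent evidence either. *Dcn*, decorin, a proteoglycan that binds collagen fibrils, was at 117749, 118721, 114407, 112126 and 123370 against 16385, 51278, 16398, 50523 and 17063 (log2 fold change 2.17, SE 0.26, adjusted p = 3.05e-07, limma). *Comp*, of tendon and cartilage matrix, stood at 6687, 6521, 6843, 6162 and 7168 against 369, 3688, 455, 3839 and 491 (log2 fold change 2.69, SE 0.49, adjusted p = 7.09e-05, limma). *Mmp12*, an elastase of macrophages, measured 651, 737, 690, 680 and 634 against 111, 139, 56.8, 103 and 89.7, with WT replicates 2 and 4 hardly apart from the rest (log2 fold change 2.81, SE 0.18, adjusted p = 3.01e-11, limma). *Thbs4* was at 11650, 11506, 12493, 11927 and 11657 against 1042, 12507, 1066, 12257 and 1074, where WT replicates 2 and 4 equalled the other group, and its log2 fold change of 2.06 (SE 0.54, adjusted p = 0.00273, limma) became -0.06 without replicates 1, 3 and 5. The call of *Thbs4* was also lost with edgeR (1.06), with DESeq2 (1.09) and in the VAD libraries alone (2.06). Of 14 fibroblast and sclera genes 11 were called higher and 1 lower (median 0.99), and of 9 genes of pericytes and smooth muscle 7 higher and 1 lower (median 0.90). Skeletal muscle genes were called higher in 10 of 12 cases (median 1.51). *Myh1*, a fast myosin, was at 2361, 2232, 2390, 2414 and 2827 against 166, 1435, 169, 1292 and 186 (log2 fold change 2.62, SE 0.46, adjusted p = 4.97e-05, limma). Endothelial genes gave no single direction, with 5 of 15 higher and 2 lower. The count was 12 higher and 2 lower without WT replicates 2 and 4 (median 0.92) but 3 higher and 9 lower without replicates 1, 3 and 5 (median -0.45). *Kdr*, the receptor VEGFR2, stood at 1545, 1744, 1874, 1916 and 1246 against 255, 1458, 281, 1510 and 330 (log2 fold change 1.57, SE 0.38, adjusted p = 0.00125, limma) and was at 0.15, not called, without WT replicates 1, 3 and 5, whereas *Egfl7*, secreted by endothelium, fell by 0.38 (SE 0.08, adjusted p = 0.000250, limma). *Vegfa*, the endothelial growth factor that the RPE secretes, rose from 1052, 1476, 1138, 1613 and 1149 in VAD WT to 5328, 5424, 5367, 5029 and 4751 (log2 fold change 2.03, SE 0.09, adjusted p = 1.24e-13, limma), and *Serpinf1*, which encodes its antagonist PEDF, rose by 1.86 (SE 0.28, adjusted p = 7.99e-06, limma). Sums over 5 erythrocyte genes were 21914 to 31284 in the libraries labelled VAD *Stra6-/-*, 3175 to 3373 in WT replicates 1, 3 and 5 and 44884 to 45389 in WT replicates 2 and 4, so that the other group lay between the WT subsets. Of 13 lens crystallin and fibre genes 3 were higher and 5 lower, with 3 higher and 9 lower without WT replicates 2 and 4 (median -1.21) but 6 higher and none lower without replicates 1, 3 and 5 (median 0.56). Of 7 myelin genes 2 were higher and 4 lower (median -0.49), and without WT replicates 1, 3 and 5 the counts were 2 and 2 (median 0.16).

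Macrophage genes rose whichever WT replicates were the reference. Of 15 listed, 12 were called higher and 1 lower, with a median of 1.68 that was 1.58 without WT replicates 2 and 4 and also 1.58 without replicates 1, 3 and 5. *Csf1r*, the receptor on which macrophages depend, was at 4288, 4602, 4806, 4848 and 4518 against 1243, 1052, 1371, 1121 and 1683 (log2 fold change 1.85, SE 0.09, adjusted p = 3.93e-13, limma). *C1qa*, a complement subunit made by macrophages, stood at 3686, 3364, 3688, 3366 and 3550 against 1076, 1398, 1325, 1203 and 1331 (log2 fold change 1.48, SE 0.08, adjusted p = 6.6e-13, limma). *Adgre1*, which encodes F4/80, measured 697, 668, 784, 810 and 802 against 60.1, 247, 85.1, 197 and 84.5 (log2 fold change 2.68, SE 0.27, adjusted p = 2.18e-08, limma). These 3 did not overlap between the groups. *Cx3cr1*, high in microglia, was called lower by a narrow margin, at 65.5, 123, 129, 131 and 122 against 266, 84.5, 223, 119 and 292 (log2 fold change -0.68, SE 0.28, adjusted p = 0.049, limma), with overlap, and at 0.14 without WT replicates 1, 3 and 5. The call was lost in the VAD libraries alone and when any 1 library other than WT replicate 2 or 4 was left out (-0.74 to -0.49). Of 6 mast cell genes 5 rose and *Kit*, which melanocytes also use, fell (log2 fold change -1.58, SE 0.14, adjusted p = 4.08e-09, limma). Of 8 tested genes of lymphocytes and neutrophils only *S100a8* and *S100a9*, at log2 fold changes of 2.07 and 2.0, were called.

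In the list of the IL-6 axis and other cytokines, 13 of 17 genes rose and 1 fell, with a median of 2.22, which was 0.94 without WT replicates 1, 3 and 5. *Il6* lies at chromosome 5 from 30013114 to 30019981 and had values of 175, 227, 172, 180 and 150 against 0, 7.21, 0, 0.856 and 0 (log2 fold change 6.71, SE 0.83, adjusted p = 5.69e-07, limma). In VAD WT only replicates 2 and 4 had any read. *Il6ra*, its receptor, was not called, at 17.1, 54.1, 23.5, 53.5 and 30.4 against 27.1, 42.2, 35.5, 56.5 and 36.4 (log2 fold change -0.24, SE 0.36, adjusted p = 0.608, limma). *Socs3*, induced by signals through STAT3, was at 1248, 1258, 1398, 1331 and 1094 against 165, 513, 89.4, 441 and 194 (log2 fold change 2.45, SE 0.31, adjusted p = 8.03e-07, limma). *Ccl2*, which attracts monocytes, stood at 176, 167, 172, 122 and 104 against 11.8, 23.7, 4.26, 24.8 and 13.0 (log2 fold change 3.35, SE 0.46, adjusted p = 2.42e-06, limma). *Lif*, a cytokine of the same family as IL-6, was at 131, 196, 171, 213 and 134 against 21.2, 40.2, 28.4, 22.3 and 35.1 (log2 fold change 2.5, SE 0.34, adjusted p = 2.04e-06, limma). *Ptgs2*, the inducible cyclooxygenase, was at 459, 552, 343, 458 and 369 against 21.2, 281, 4.26, 322 and 36.4 (log2 fold change 3.04, SE 0.73, adjusted p = 0.00122, limma), and without WT replicates 1, 3 and 5 the difference was 0.51 and not called. *Tnf* was not called, at 11.1, 11.7, 14.3, 9.66 and 16.1 against 28.3, 5.15, 70.9, 14.6 and 20.8 (log2 fold change -0.67, SE 0.43, adjusted p = 0.2, limma). Of 12 complement genes 8 rose and none fell, with a median of 0.74. *Cfb*, a component of the alternative pathway, rose by 1.12 (SE 0.15, adjusted p = 1.11e-06, limma).

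Stress genes were divided. Of 12 heat shock genes 6 rose and 5 fell, with a median of 0.45. *Hspa1a* and *Hspa1b* are near-identical inducible chaperone genes next to each other on chromosome 17, so that reads can be split between them. *Hspa1a* was at 794, 831, 879, 964 and 935 against 4138, 3807, 3814, 4076 and 4070 (log2 fold change -2.18, SE 0.07, adjusted p = 1.33e-16, limma). *Hspa1b* was at 746, 778, 832, 686 and 706 against 9980, 7502, 10664, 8341 and 10476 (log2 fold change -3.64, SE 0.09, adjusted p = 1.39e-17, limma). Their summed values were 1539, 1608, 1711, 1649 and 1641 against 14118, 11309, 14478, 12416 and 14546, a log2 difference of -3.03 (SE 0.08, two-sided p = 0.00794, exact permutation test, the smallest that 5 against 5 allow). *Hspb1*, a small chaperone abundant in surface epithelium, fell by 2.44 (SE 0.24, adjusted p = 1.53e-08, limma). The constitutive chaperones *Hspa8* and *Hsp90aa1* rose, by 1.45 (SE 0.11, adjusted p = 2.39e-10, limma) and 1.5 (SE 0.12, adjusted p = 4.31e-10, limma). Of 15 antioxidant genes 13 rose and none fell, with a median of 0.80. *Hmox1*, heme oxygenase, was at 1143, 1008, 1096, 1076 and 1048 against 134, 258, 170, 300 and 181 (log2 fold change 2.42, SE 0.16, adjusted p = 2.22e-11, limma). *Cat*, catalase, stood at 4799, 5108, 4587, 5175 and 5056 against 1083, 1550, 1067, 1543 and 1055 (log2 fold change 1.99, SE 0.10, adjusted p = 4.11e-13, limma). *Srxn1*, which restores peroxiredoxins, rose by 2.03 (SE 0.09, adjusted p = 1.51e-13, limma). Of 14 immediate early genes 8 were higher and 2 lower, with 11 higher and 2 lower without WT replicates 2 and 4 (median 1.76) but 4 higher and 7 lower without replicates 1, 3 and 5 (median -0.30). *Fos* was at 1221, 1166, 1306, 1217 and 1286 against 691, 2581, 587, 2699 and 720, inside the range of WT (log2 fold change 0.1, SE 0.31, adjusted p = 0.806, limma), while *Atf3* was at 612, 687, 712, 601 and 591 against 68.4, 268, 121, 332 and 100 (log2 fold change 2.09, SE 0.28, adjusted p = 1.6e-06, limma).

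Over all genes, the naming rule took the 10 largest changes in each direction among genes that were called, did not overlap between the groups and averaged at least 10 CPM (reads scaled to a common library total) in a group. The 10 falls were in *Syt8*, *Slurp1*, *Lypd2*, *Arr3*, *Rhox4a*, *Adtrp*, *Gm5512*, *Fam25c*, *Fam83a* and *Clca4a*, with log2 fold changes from -7.85 to -6.64 apart from *Gm5512*. *Gm5512* had no more than 1.80, which is fewer than 3 reads, in any library labelled VAD *Stra6-/-* against 58.7 to 646 in VAD WT. No fold change is given for it, because its size would rest on the added 1. The sizes for other genes with few reads in a group depend in part on the added 1 as well. Such genes are *Arr3* and *Rhox4a* in the libraries labelled VAD *Stra6-/-* and *Il6* in VAD WT. *Rhox4a* belongs to a cluster of near-identical copies, so its count is uncertain. *Fam83a*, expressed in stratified epithelia, was at 57.4, 53.2, 56.3, 72.9 and 54.1 against 9172, 2850, 10001, 3002 and 9494. *Adtrp*, which limits coagulation at the cell surface, was at 13.1, 7.22, 9.21, 7.90 and 0 against 1392, 413, 1268, 401 and 1365. Apart from *Arr3*, each of the 10 was lower in WT replicates 2 and 4 than in replicates 1, 3 and 5, like the cornea genes. The 10 rises were in *Il6*, *Pcdhac2*, *Serpine3*, *Itgb8*, *Lrat*, *Pcdhgb6*, *Mcoln3*, *Ptx3*, *Rdh10* and *Abhd2*, with log2 fold changes from 6.71 to 4.77. *Pcdhac2* and *Pcdhgb6* are clustered protocadherins that share exons with their neighbours, so their counts are uncertain, and without WT replicates 1, 3 and 5 *Pcdhac2* was at 2.0 and not called. *Itgb8*, an integrin subunit that activates TGF-β, stood at 448, 718, 546, 985 and 424 against 5.89, 96.8, 8.51, 102 and 0 (log2 fold change 5.35, SE 0.82, adjusted p = 1.03e-05, limma). *Ptx3*, a soluble pattern receptor, was at 561, 626, 493, 466 and 626 against 35.4, 13.4, 7.09, 27.4 and 9.10 (log2 fold change 5.06, SE 0.49, adjusted p = 1.56e-08, limma). *Mcoln3*, a calcium channel of endosomes, was at 389, 368, 448, 409 and 409 against 8.25, 121, 0, 133 and 0, with 2 WT libraries lacking any read of it (log2 fold change 5.22, SE 1.00, adjusted p = 0.000127, limma). In *Itgb8* and *Mcoln3* WT replicates 2 and 4 lay far above replicates 1, 3 and 5. The size of these 2 rises thus depends on which WT replicates are the reference.

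Whether the genotype difference depended on diet was tested as an interaction over all 20 libraries, and 44.2% of genes were called (limma, adjusted p under 0.05). The genotype difference on the VAS diet alone was called in 26.6% of genes, 15.9% higher and 10.8% lower. On the VAS diet *Stra6* lay in the direction of the label, with means of 629 in VAS *Stra6-/-* and 2591 in VAS WT. There *Rpe65* averaged 5824 ± 144 with the knockout label and 4178 ± 271 in WT (SD, n = 5 each), and its interaction was 3.93 (SE 0.34, adjusted p = 6.17e-09, limma). *Lrat* had an interaction of 4.81 (SE 0.33, adjusted p = 1.57e-10, limma) and *Trf* one of 5.06 (SE 0.27, adjusted p = 2.44e-12, limma). In the other direction stood *Pkp1* at -5.91 (SE 0.22, adjusted p = 1.12e-14, limma) and *Krt12* at -7.16 (SE 0.43, adjusted p = 1.70e-11, limma). *Pkp1* had been higher in VAS *Stra6-/-* than in VAS WT, with means of 13158 ± 270 and 5889 ± 412 (SD, n = 5 each). *Hspa1a* and *Hspa1b* reversed between the diets, since the knockout label went with values higher by 2.13 and 2.39 on the log2 scale on the VAS diet and with lower values on the VAD diet. *Arr3* was lower with the *Stra6-/-* label on both diets, and more so on the VAD diet, by 4.98 on the log2 scale (SE 0.70, adjusted p = 4.76e-06, limma). The cornea sum was higher in VAS *Stra6-/-* (935212 to 974028) than in VAS WT (661787 to 803640), although of its 11 genes only 1 was called higher and 1 lower on this diet, with a median of 0.32. Of the 6 listed junction genes of the study 5 were called higher there. Sex-linked genes also differed between the genotypes on the VAS diet. Of 5 such genes, 1 was called higher and 4 lower in VAS *Stra6-/-*, with a median log2 fold change of -8.44, and the interaction was called in all 5. Genotype and sex thus cannot be told apart on the VAS diet. The parts of sex and of tissue makeup in the interactions were not tested.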

How the data were processed

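Poly(A) RNA of 20 mouse eyecup samples was sequenced by the authors, aligned to GRCm38 (mm10) with STAR 2.5.3a and counted per gene with RSEM 1.2.30, per the labels and methods. The deposited values (signal) were whole multiples of 1 step per library, as counts divided by a DESeq2 (1.32.0 in the processing notes) size factor would be. Whole reads were recovered for 19 libraries, where 100% of values came out whole within 0.01 reads. For VAD *Stra6-/-* replicate 1 the step (1.008) was too near 1 to claim this, so it was left out of the tests on reads. Reads per VAD library had a median of 17685764 and ranged from 13331903 to 21878614.

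Of 24411 genes, 18807 with at least 5 reads in total were tested with limma 3.58.1 (R 4.3.3, intensity trend) on log2(value + 1). The fit held 20 libraries and 4 group means, with Benjamini-Hochberg adjustment. All p-values measure the spread between the deposited samples. Values relative to RPE genes and the summed *Hspa1a* and *Hspa1b* were compared by exact permutation tests. The scripts were tested on simulated data. Alternatives were edgeR 4.0.16 and DESeq2 1.42.0 on recovered reads, other pseudocounts (0.5 and 4), filters, TMM factors, library weights, a replicate block, the 10 VAD libraries alone and libraries left out. No library pair differed by as little as counting noise.

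Members and lists were chosen with earlier results of these data known, so no list was tested. Genes named are *Stra6*, those of the lists, and the 10 largest changes in each direction among genes called at 0.05 that did not overlap and averaged at least 10 CPM in a group. Some genes of the lists enter the counts but are not reported here by name. Gene positions are from GENCODE vM21 (GRCm38), and promoters from RefSeq (GRCm38.p6). Strand use in counting is not given in the sources used here. Of 5 sex-linked genes none was called with all libraries, but 4 were called higher and 1 lower without VAD WT replicates 1, 3 and 5, and 1 higher and 2 lower without replicates 2 and 4.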

Additional observations from a re-analysis of the deposited data

Results flagged for a closer look

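Among 334 gene and group pairs, 20 had a library whose gap to the nearest of the others, divided by the range of the 5, was above 0.71. Chance alone gives this in about 1 in 20 groups. Replicate 5 of the libraries labelled VAD *Stra6-/-* was the highest of its group in *Lpl* (1976), *Aldh1a1* (3236), *Dct* (83850), *Rab38* (1166), *Cdh3* (2813), *Trf* (348847), *Hspa8* (55474) and *Hsp90aa1* (32582), and the lowest in *Lrat* (18109). Replicate 3 of that group was the highest in *Rarb* (576), *Cnga3* (3.07), *Rhox4a* (5.12) and *Fam25c* (8.19), the last 3 being a few reads. Replicate 4 was the highest in *Fam83a* (72.9) and the lowest in *Serpine3* (1144), and replicate 1 the lowest in *Cx3cr1* (65.5). In VAD WT, replicate 3 was the lowest in *Calb2* (1747), replicate 2 the highest in *Slc7a10* (269) and *Il6* (7.21), and replicate 4 the highest in *Cxcl2* (7.7).

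The genotype difference on the VAD diet differed from that on the VAS diet in 8319 genes by the interaction term of limma. For 17 genes the size of this interaction on the log2 scale is given, and all 17 were called. Of the retinoid and RPE genes, *Rpe65* stood at 3.93, *Lrat* at 4.81, *Rdh5* at 3.69 and *Trf* at 5.06. Of the junction genes, *Cldn1* stood at 2.18, *Cldn2* at 2.68, *Cdh3* at 3.11, *Cldn4* at -4.18, *Pkp1* at -5.91 and *Dsc3* at -5.96. The corneal genes *Krt12* and *Slurp1* stood at -7.16 and -7.86, and the cone genes *Arr3* and *Opn1sw* at -4.98 and -2.39. *Hspa1a* and *Hspa1b* stood at -4.31 and -6.03 and *Il6* at 4.53. The share of cornea and RPE genes in the libraries differed between the 4 groups as well, and sex-linked genes differed between the genotypes on the VAS diet. The part of either in these interactions was not tested.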

How the results depend on the processing

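The 10504 calls, the calls in each direction and the 1952 beyond a log2 fold change of 2 stayed within 1.5 times their value under the alternatives tried, with 9942 calls by edgeR and 10195 by DESeq2 on recovered reads, apart from a threshold of 1, which gave 5064. The log2 fold change of *Stra6* and its call held in all 22 alternatives. Samples with the same replicate number did not deviate together (correlations 0.00120 to 0.06541), so the numbers do not pair them, and the fit with the replicate number as a block gave 10423 calls and changed no named call. Of 924 list medians recomputed, 828 moved by less than the spread between replicates, and the cause was not tested for the others. Without VAD WT replicates 2 and 4 they were 4.44 for retinoid cycle of the study, 1.36 for outer segment uptake, -4.56 for junction of the study, -1.1 for tight junction scaffold and polarity, -2.97 for hemidesmosome, 1.91 for cornea stroma and outflow tissue, -1.21 for lens crystallins, -0.31 for rod, -0.24 for inner retina, 0.92 for endothelium, 1.44 for pericyte and smooth muscle, 1.58 for fibroblast and sclera, 2.65 for matrix of the study, 1.58 for macrophage and microglia, 2.39 for mast cell, 3.22 for erythrocyte, 1.76 for immediate early, 1.07 for complement, 0.46 for Na,K-ATPase subunits and -0.40 for sex-linked. Without VAD WT replicates 1, 3 and 5 they were 3.28 for retinoid cycle of the study, 0.89 for other retinoid handling, -1.7 for retinoic acid synthesis and breakdown, 1.61 for melanosome, 0.67 for outer segment uptake, -3.71 for junction of the study, -0.51 for tight junction scaffold and polarity, -0.27 for classical cadherins and catenins, -3.43 for desmosome, -2.0 for hemidesmosome, -3.48 for surface epithelium, 0.72 for cornea stroma and outflow tissue, 0.56 for lens crystallins, -1.74 for rod, -1.7 for inner retina, -0.45 for endothelium, 0.19 for pericyte and smooth muscle, 0.38 for fibroblast and sclera, 1.01 for matrix of the study, 0.48 for skeletal muscle, 1.58 for macrophage and microglia, 1.52 for mast cell, 0.16 for myelin and Schwann cell, -1.25 for erythrocyte, 0.31 for heat shock, -0.30 for immediate early, 0.94 for IL-6 axis and cytokine, 0.44 for complement, 0.53 for Na,K-ATPase subunits, 1.07 for RPE channels and ion transporters and 2.43 for sex-linked. With library weights they were 4.31 for retinoid cycle of the study, -1.11 for retinoic acid synthesis and breakdown, 1.28 for outer segment uptake, -4.52 for junction of the study, -1.05 for tight junction scaffold and polarity, -2.91 for hemidesmosome, -1.13 for lens crystallins, -0.39 for inner retina, 1.38 for pericyte and smooth muscle, 1.59 for macrophage and microglia, 2.35 for mast cell, 0.99 for complement, 0.39 for Na,K-ATPase subunits and -0.15 for sex-linked. With edgeR they were 0.35 for other retinoid handling, -1.18 for retinoic acid synthesis and breakdown, -0.96 for tight junction scaffold and polarity, 1.6 for macrophage and microglia, -0.07 for erythrocyte, 1.6 for IL-6 axis and cytokine and -0.27 for sex-linked. With DESeq2 they were 0.38 for other retinoid handling, -1.21 for retinoic acid synthesis and breakdown, 0.98 for lymphocyte and neutrophil, -0.03 for erythrocyte, 1.62 for IL-6 axis and cytokine and -0.24 for sex-linked. With a mean value of at least 10 they were -0.09 for retinoic acid synthesis and breakdown, -0.43 for claudins, 1.96 for lymphocyte and neutrophil and 0.93 for complement. With a pseudocount of 0.5 they were -1.15 for retinoic acid synthesis and breakdown. With a pseudocount of 4 they were 0.46 for other retinoid handling, -0.45 for retinoic acid synthesis and breakdown and 1.76 for IL-6 axis and cytokine. Among single genes, 37 values lost their call and 30 gained one with the sign kept, and 39 changed sign, some of them with a change of call. Apart from those with 1 library left out, the changes of sign were as follows: without VAD WT replicates 2 and 4 *Rbp3* stood at 0.31, *Sag* stood at 0.49 and *Ddx3y* stood at -0.32, without VAD WT replicates 1, 3 and 5 *Aldh1a1* stood at 0.44, *Cyp26a1* stood at -0.35, *Best1* stood at -0.04, *Krt16* stood at -0.22, *Pdc* stood at -1.69, *Thbs4* stood at -0.06, *Col1a1* stood at -0.87, *Cx3cr1* stood at 0.14, *Tnf* stood at 0.45, *Fos* stood at -1.09 and *Xist* stood at -1.5, with library weights *Rbp3* stood at 0.18 and *Sag* stood at 0.37, with edgeR *Pdc* stood at -0.62, *Col1a1* stood at -0.15, *Il6ra* stood at 0.00, *Fos* stood at -0.26 and *Xist* stood at -0.27, with DESeq2 *Pdc* stood at -0.60, *Col1a1* stood at -0.12, *Il6ra* stood at 0.02, *Fos* stood at -0.23 and *Xist* stood at -0.24. Leaving out 1 library at a time, log2 fold changes ranged in *Aldh1a1* -0.21 to 0.02, *Col1a1* -0.09 to 0.34, *Fos* -0.14 to 0.41, *Pdc* -0.19 to 0.64 and *Sag* -0.20 to 0.15, list medians in RPE channels and ion transporters 0.79 to 0.95, hemidesmosome -2.75 to -2.4, outer segment uptake 1.01 to 1.2, retinoic acid synthesis and breakdown -1.22 to -0.80 and tight junction scaffold and polarity -1.0 to -0.81, and values relative to RPE genes in *Atp1b1* -0.44 to -0.24, *Slc13a3* 0.35 to 0.57, *Slc2a12* 0.28 to 0.62 and *Slc7a10* 0.31 to 0.52; the calls of *Atp1b1*, *Slc13a3* and *Slc2a12* were gained without VAD WT replicates 5, 1 and 3, and that of *Slc7a10*, with values of 0.43, was lost without replicates 1, 4 or 5 of the libraries labelled VAD *Stra6-/-*. Without VAD WT replicates 2 and 4, *Slc2a12* relative to RPE genes was at -0.00 and *Slco1a4* at -0.96, which was then called. Depth limits genes of few reads, where 1 read was worth 0.8455 to 1.419.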
